A study of Mus musculus with 4 samples.

Results

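Among the high-scoring LSD1 peaks under 2000 bp in differentiating C2C12 cells, the most frequent outcome was a single and usually narrower LSD1 peak in differentiated cells. This holds by an overlap of at least 1 bp or of at least 50% of the day 5 peak, but not of at least 50% of the day 2 peak. These sites, called one-partner sites here, were the day 2 LSD1 peaks on chromosomes 1 to 19 with a peak score of at least 330 and a width below 2000 bp that overlapped exactly 1 day 5 LSD1 peak by at least 1 bp. They were thus chosen by the day 2 score, the day 2 width and the overlap, and those values are given as a description. They numbered 2561 of the 44039 day 2 peaks, and each had its own partner among the 17446 day 5 peaks. The score is the value that the authors' peak caller gave each peak, on a scale that the files do not state, so it is used within each day's list only.

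The study followed LSD1 by ChIP-seq in C2C12, an established mouse myoblast line that stops dividing and fuses into myotubes when serum is lowered. Cells kept in 10% fetal bovine serum and 25 mM glucose were moved to 2% horse serum at the same glucose and taken after 48 h (day 2, labelled differentiating) or 120 h (day 5, labelled differentiated). Chromatin was fixed with formaldehyde plus disuccinimidyl glutarate, a protein crosslinker, and LSD1 was precipitated with a polyclonal antibody. The series has 4 libraries, an LSD1 precipitate and an input for each day, 1 library per group, and the labels name no genetic change or drug. No difference between the days can be set against a replicate error, no p-value is given, and the 95% intervals below cover counting error only and treat neighbouring peaks as independent. Peak positions are in mm9 and counted from 1. No mm9 sequence or gene annotation was used here, so sites are named by position and no gene or base sequence is given for them. Read depth and the inputs were not analysed here, and width and score of a called peak depend on depth, fragment length and caller settings as well as on occupancy.

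LSD1, the product of Kdm1a, is a flavin-dependent enzyme that takes methyl groups off lysine side chains of histone H3. It has no sequence-specific DNA-binding domain of its own and is brought to chromatin by partners, among them the CoREST proteins, histone deacetylases and DNA-binding factors. In muscle cells it is known both for repressing genes and for acting at genes that are switched on during myogenesis. A peak in these data marks chromatin from which LSD1 was recovered directly or through crosslinked partners, and does not tell repression from activation.

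Of the 3800 day 2 peaks that met the score and width limits, 2561 (67.4%, Wilson interval 65.9 to 68.9) had exactly 1 day 5 peak. Over all 42796 day 2 peaks under 2000 bp on these chromosomes the share was 26.9%, a contrast that the score limit is part of. Of the remaining strong peaks, 560 (14.7%, 13.6 to 15.9) had no day 5 peak and 679 (17.9%, 16.7 to 19.1) had several. The several were 2 day 5 peaks at 628 sites, 3 at 50 and 4 at 1 site. With an overlap of at least 50% of the day 5 peak required instead, the share with exactly 1 partner was 67.7% (66.2 to 69.2). With at least 50% of the day 2 peak required, it was 25.5% (24.1 to 26.9) and no longer the most frequent outcome. Partners at one-partner sites covered a median of 42.4% of the day 2 peak, so the latter rule leaves out many narrow partners.

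The share with a single partner stayed level above the limit while the other outcomes exchanged places. It was 65.5% (62.9 to 67.9) at scores from 330 to below 400, 68.0% (65.3 to 70.7) from 400 to below 500, and 68.8% (65.7 to 71.8) from 500 to below 700. From 700 to below 1000 it was 68.1% (62.7 to 73.0), and among the 95 peaks scoring 1000 and more it was 71.6% (61.8 to 79.7). Over the same steps the share without a day 5 peak went from 23.8% (21.6 to 26.2) to 15.5%, 6.26%, 1.60% and 0 of 95, which by the limit of 3 counts allows a share of up to 3.16% (Wilson upper bound 3.89%). The share with 2 or more went from 10.7% (9.18 to 12.5) to 16.5%, 24.9%, 30.4% and 28.4% (20.3 to 38.2). Below the limit the single-partner share was still climbing, from 10.9% at scores of 50 to below 100 to 52.7% (51.4 to 54.0) at 200 to below 330.

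**Figure D1:**
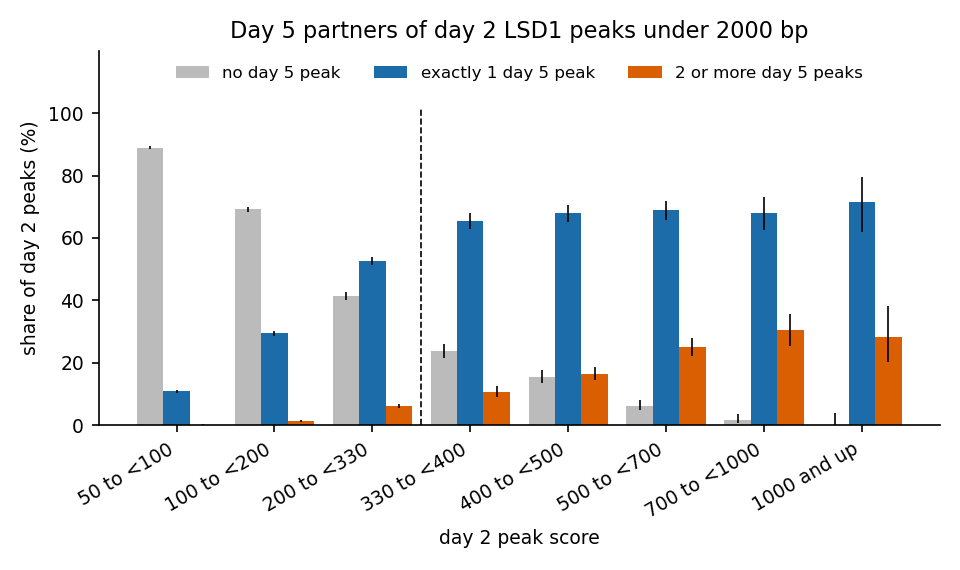
Share of day 2 LSD1 peaks under 2000 bp (vertical axis, percent) that overlapped no, exactly 1, or 2 or more day 5 peaks, by day 2 score; bars are shares, lines are Wilson 95% intervals and the dashed line is the score limit of 330. Right of that line the bars for exactly 1 day 5 peak lie between 65.5% and 71.6%, while those for none go down and those for 2 or more are higher at the highest scores.

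The single-partner share varied more with day 2 width than with day 2 score above the limit. Among strong peaks of any width, 86.8% (82.2 to 90.3) of those from 200 to below 800 bp had exactly 1 partner, against 76.7% from 800 to below 1200 bp, 62.4% from 1200 to below 1600 bp and 53.9% (50.3 to 57.5) from 1600 to below 2000 bp. Peaks of 2000 bp and more, which the rule leaves out, had exactly 1 partner in 41.7% of 580 cases (37.8 to 45.8). The share with several partners went the other way, from 1.84% of the narrowest to 30.7% just below the width limit and 48.4% above it. The share with no partner stayed between 9.83% and 16.7% across these widths.

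Taken at day 2, the one-partner sites had a median score of 442 (quartiles 378 to 550, range 330.02 to 3100) and a median width of 1218 bp (quartiles 988 to 1469). Their partners at day 5 had a median width of 481 bp (median interval 471 to 490) and a median score of 124 (120.1 to 128, quartiles 83.6 to 186). For comparison, all 17315 autosomal day 5 peaks had a median width of 331 bp (329 to 334) and a median score of 72.3 (71.8 to 73.0). The 8946 peaks that met every criterion except the score limit, called weaker one-partner sites here, had partners with a median width of 326 bp (323 to 329) and a median score of 70.9 (70.6 to 71.3), close to the values of the whole day 5 list. The partners of the strong sites thus stood above both in width and in score, without overlap of the median intervals.

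The label "strong" holds for day 2 and only in part for day 5. Of the 2561 partners, 922 (36.0%, 34.2 to 37.9) were in the top 10% of the day 5 list by score, where 10.0% of autosomal day 5 peaks lie. Among the weaker one-partner sites 353 of 8946 partners (3.95%, 3.56 to 4.37) were. Among strong peaks of 2000 bp and more with exactly 1 partner it was 86 of 242 (35.5%, 29.8 to 41.8). The share was thus not particular to one-partner sites. Another 446 partners of one-partner sites (17.4%, 16.0 to 18.9) were in the lower 50% of the day 5 list and 72 (2.81%) in its lowest 10%. Seen from day 5, partners of one-partner sites made up 14.7% of the list, 58.6% (55.5 to 61.6) of its 1000 highest-scoring peaks and 65 of its 100 highest. The rest of these 100 were 23 in day 2 peaks of 2000 bp and more, 11 in strong narrow peaks with several partners and 1 in a day 2 peak below the score limit. At day 2 the one-partner sites held 36 of the 100 highest places and peaks of 2000 bp and more held 48.

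Day 5 score followed day 2 score across the sites, with wide scatter. With the sites in 5 equal groups by day 2 score, the median partner score was 94.9 (90.8 to 99.99) in the lowest group, then 104, 112 and 138, and 217 (207 to 232) in the highest. The share of partners in the top 10% of the day 5 list went with it, from 14.6% (11.8 to 17.9) to 19.5%, 30.1%, 40.4% and 75.4% (71.5 to 78.9). Spearman's rho between the scores was 0.47 over the 2561 sites and 0.29 over the 8946 weaker one-partner sites. This describes sites that share 2 libraries, and it is cut off by the score limit, so it has no p-value.

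**Figure D2:**
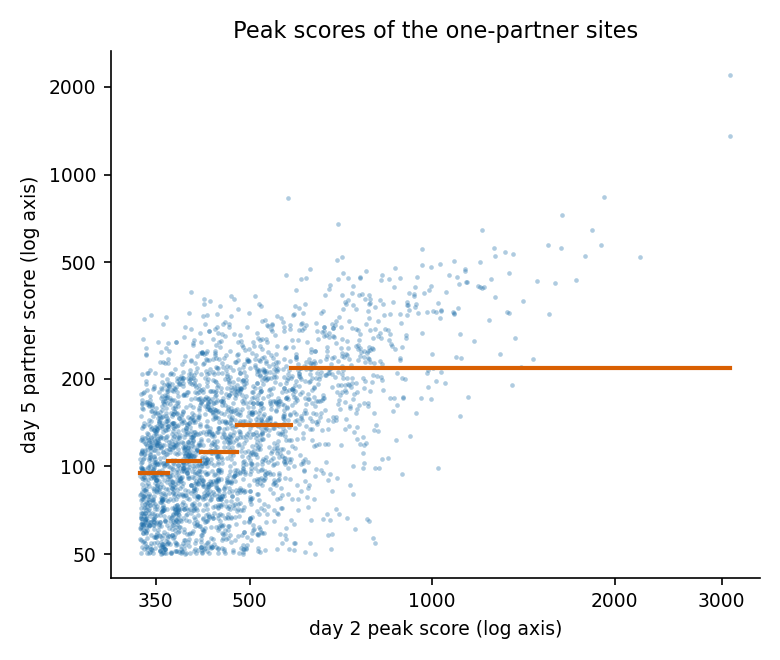
Day 2 score (horizontal, log axis) against the score of the day 5 partner (vertical, log axis) for the 2561 one-partner sites; each point is a site, and each bar is the median partner score of 1 of 5 equal groups by day 2 score. The bars step from 94.9 up to 217, while single partners in the lowest group run from near 50 to above 300.

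At the 3 highest-scoring partners, the day 5 peak covered 66.2%, 73.9% and 83.9% of the day 2 peak. On chromosome 8, the day 2 peak at 89995856 to 89997561 (score 3100) held a day 5 peak at 89996299 to 89997428 (score 2201, place 2 of the list). On chromosome 3, the day 2 peak at 94216285 to 94217792 (score 3100) held one at 94216462 to 94217575 (score 1352, place 3). On chromosome 4, the site at 135732788 to 135734395 (score 1918) had a partner of 1349 bp (score 841, place 4). In these 3 sites the day 2 peak was 1.51, 1.35 and 1.19 times as wide as its partner, under the median ratio of 2.35 over all one-partner sites. Among the 10 highest-scoring partners the ratio reached 2.68, at the site on chromosome 7 from 52436939, where the partner covered 37.3%.

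Other leaders of the day 5 list came from lower in the day 2 list. The site on chromosome 2 at 119372398 to 119373757 had a day 2 score of 579 (place 1101 of 44039) and a partner scoring 830 (place 5 of 17446). The site on chromosome 8 at 90788849 to 90789932 had a day 2 score of 700.3 (place 632) and a partner scoring 679 (place 13). Both stand out in the plot of scores as the points far above others of like day 2 score. The other 5 of the 10 highest-scoring partners lay at sites with day 2 scores from 1208 to 1896, on chromosomes 4, 6, 7, 9 and 10, and themselves scored 573 to 729. The site scoring 1896, on chromosome 10 at 105277416 to 105278915, had a partner of 939 bp scoring 575 (place 18).

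At the other end, 10 partners scored from 50.1 to 50.4, just above the lowest value in the list. The lowest, on chromosome 2 at 119972434 to 119972656, was 223 bp wide and covered 11.9% of a day 2 peak of 1874 bp at 119972311 to 119974184 (score 391). The highest-scoring day 2 site of these 10, on chromosome 17 at 24986315 to 24988121, had a score of 641 (place 827) and a partner of 386 bp scoring 50.2 (place 17320). All 10 lay wholly inside their day 2 peak and were between 193 and 386 bp wide. A further site with places far apart, on chromosome 5 at 36013905 to 36014917, scored 618 at day 2 (place 918) and its partner 50.7 (place 17017). Sites of this kind were kept as shared by a partner that scored little more than the list's lowest score of 50. A slightly stricter day 5 list would put them among the sites with no partner.

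The sites with the highest day 5 place for their day 2 place were mostly narrow. On chromosome 15, the peak at 72398856 to 72399524 (669 bp, score 334, place 4285 at day 2) had a partner scoring 320.2 (place 232). On the same chromosome, the peak at 76228356 to 76229174 (819 bp, score 363) had one scoring 325 (place 223). On chromosome 9, the peak at 36713000 to 36713871 (872 bp, score 343) and its partner of 862 bp (score 329, place 216) were almost equally wide. On chromosome 1, the peak at 165621666 to 165622578 (913 bp, score 360.2) had a partner scoring 307 (place 260). The exception in width was chromosome 3 at 138404853 to 138406471, a day 2 peak of 1619 bp (score 334) with a partner of 1152 bp (score 274, place 370). The lists differ in length, so these places describe each list and are not a change in occupancy. The score limit keeps one-partner sites in the top 9.97% of the day 2 list. The sites with the most places to gain are thus those near the limit.

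At a one-partner site the day 5 peak was typically a short segment within the day 2 peak. Day 2 width divided by partner width had a median of 2.35 (2.30 to 2.39, quartiles 1.77 to 3.37). It was at least 2 times as wide at 1655 sites (64.6%) and at least 5 times as wide at 212 (8.28%). The partner lay wholly inside at 2430 sites (94.9%, 94.0 to 95.7), where over all autosomal overlapping pairs 88.4% did. It crossed 1 edge at 129 sites and both edges at 2. The partner was the wider peak at 11 sites (0.430%). Beside these, the weaker one-partner sites had a median ratio of 2.26 (2.24 to 2.28) and a partner wholly inside in 86.0% (85.3 to 86.7). Their day 2 peaks were narrower, at a median of 774 bp, so these values do not compare equal widths. From 1000 to below 1200 bp the ratio was 2.18 (2.11 to 2.29) at one-partner sites and 3.07 (2.97 to 3.16) at weaker ones. The ratio was lower at one-partner sites in each step of 200 bp between 600 and 2000 bp. Intervals of the share wholly inside were apart only from 800 to below 1000 bp, at 94.3% against 90.4%, and overlapped in the other steps.

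The extremes of the width ratio show the range. The largest ratio, 10.2, was on chromosome 6 at 115442575 to 115444405, a day 2 peak of 1831 bp (score 593) with a partner of 179 bp (score 63.5). Ratios of 9.01 to 9.75 followed on chromosomes 8, 11, 14 and 10, with partners of 174 to 195 bp. The smallest ratio, 0.75, was on chromosome 10 at 118426763 to 118427404, where a day 2 peak of 642 bp (score 422) met a partner of 854 bp (score 201). The 2 sites whose partner reached past both edges were chromosome 11 at 106254105 to 106254785 (681 bp, partner 790 bp) and chromosome 2 at 24308443 to 24309275 (833 bp, partner 934 bp). The 5 smallest ratios all belonged to day 2 peaks of 588 to 833 bp.

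Over all one-partner sites, the width of the partner went more with day 2 score than with day 2 width. Wide day 2 peaks more often had several partners and were then left out by the rule. What this does to the partner widths was not tested. Across 5 equal groups by day 2 width, the median day 2 width went from 811 to 1706 bp. The median partner width was 435 bp (423 to 446) in the narrowest group, then 490, 510.0 and 504.5, and 509.5 bp (476 to 543) in the widest, so the 4 wider groups had overlapping intervals. Across 5 groups by day 2 score, the median day 2 width went only from 1117 to 1290.5 bp, while that of the partner went from 414 bp (395 to 430) and 411.5 bp to 458.5, 515.5 and 641.5 bp (620 to 663). The ratio of widths accordingly went up with day 2 width, from 1.78 to 3.37, and down with day 2 score, from 2.60 to 1.95. Spearman's rho over the sites was 0.15 between both widths, 0.38 between day 2 score and partner width, and 0.73 between the score and the width of the partner itself.

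**Figure D3:**
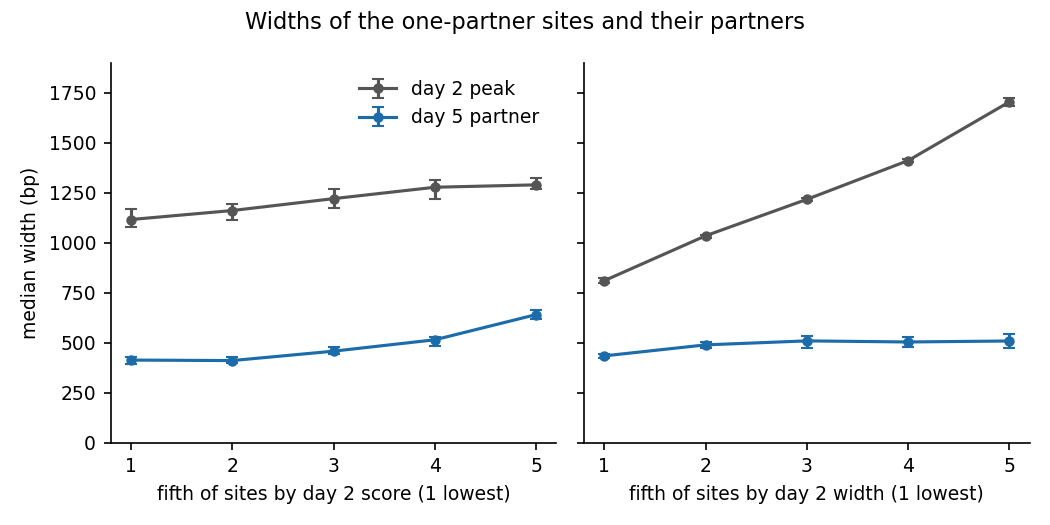
Median width in bp of the day 2 peaks and of their day 5 partners at one-partner sites, in 5 equal groups by day 2 score (left) and by day 2 width (right); bars are 95% intervals of the median. On the right the day 2 line goes from 811 to 1706 bp while the partner line stays between 435 and 510.0 bp, and on the left the partner line reaches 641.5 bp in the group of highest day 2 score.

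With score and width each divided into 3 equal groups, the partner's width followed day 2 width in order only among the strongest sites. In the lowest score group the median partner was 402, 408 and 415 bp wide from the narrowest to the widest day 2 peaks, with overlapping intervals. In the highest score group it was 522.5 bp (504 to 554), 608 bp (572 to 640) and 676 bp (635 to 717). The middle score group had no order, with 444, 504.5 and 432 bp.

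At equal day 2 width, partners of one-partner sites were wider and higher in score than partners of weaker one-partner sites. For day 2 peaks from 1000 to below 1200 bp, the median partner was 493 bp (476 to 514) at 560 one-partner sites and 356 bp (345 to 364) at 1189 weaker ones. The partner scores there were 128 (118 to 137) and 73.6 (71.4 to 75.5). For day 2 peaks from 1400 to below 1600 bp the partner widths were 504 bp (471 to 536) and 367 bp (355 to 389). The intervals were apart in each of the 7 width steps of 200 bp between 600 and 2000 bp, for width and for score of the partner. Among the weaker sites the partner's median width ranged from 329 to 381.5 bp over these steps, which leave out their peaks below 600 bp. Over all 8946 weaker sites, Spearman's rho was 0.28 between both widths and 0.29 between day 2 score and partner width.

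The partner's midpoint lay on either side of the day 2 midpoint about equally often. A partner that lies inside a wider peak covers the centre more often than the edges even without a preferred position, so the values on its position are a description, and a preference for the centre was not tested. Midpoints were a median of 119 bp apart (112.5 to 126.5, quartiles 52.5 to 236), and within 100 bp at 1126 sites (44.0%). At weaker one-partner sites, whose day 2 peaks were narrower, the median was 88.5 bp (85.5 to 91). There 54.7% (53.7 to 55.7) lay within 100 bp. The partner's midpoint was in the central 50% of the day 2 peak at 2289 sites (89.4%, 88.1 to 90.5), against 84.2% (83.5 to 85.0) at weaker one-partner sites. It lay towards higher coordinates at 1300 sites (50.8%, 48.8 to 52.7), so the direction was even on the reference strand, which without gene annotation says nothing of the direction of transcription. The partner covered the day 2 midpoint at 1905 sites (74.4%, 72.7 to 76.0) and a median of 42.4% of the length of the day 2 peak (41.8 to 43.4).

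Coverage was alike on both sides of the day 2 midpoint. At 250 bp from it the partner was present at 50.7% of sites on the side of lower coordinates and 51.6% on the other, and at 500 bp at 14.0% and 14.6%. The day 2 peak itself was present at 73.8% and 73.7% of sites at 500 bp.

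**Figure D4:**
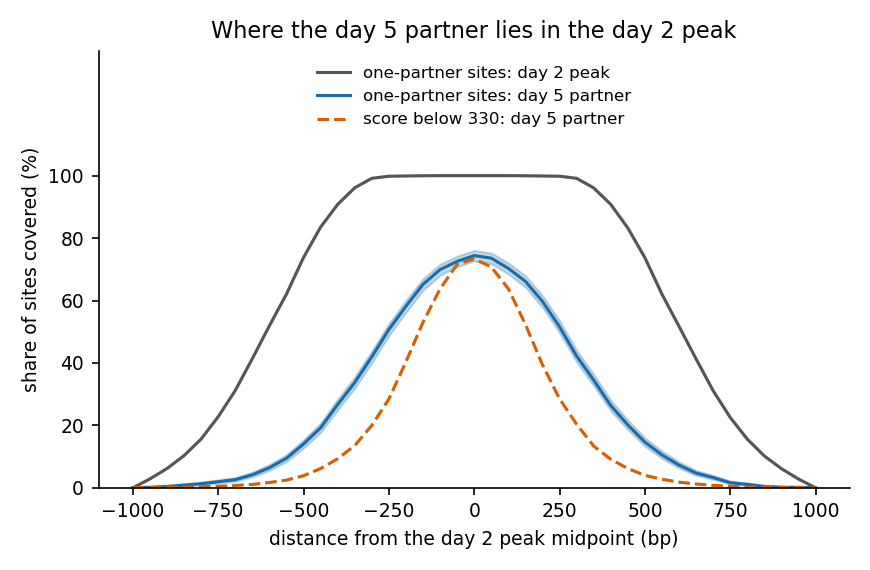
Share of sites (vertical axis, percent) at which a position at a given distance in bp from the day 2 midpoint lies in the day 2 peak or in the day 5 partner, for one-partner sites (solid lines, Wilson 95% band on the partner) and for the partners of weaker one-partner sites (dashed). The partner curve peaks at 74.4% at the midpoint and is symmetrical, and the dashed curve is as high at the centre but narrower.

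Wider day 2 peaks had partners further in bp from their midpoint. A partner of like width has more room to lie off centre in a wider peak, so this is a description. The median distance went from 55 bp (50 to 61.5) in the narrowest of 5 groups by width to 97.8, 140.5, 171.5 and 243 bp (213 to 260.5) in the widest. Across groups by day 2 score it stayed between 111 and 129 bp with no order. At equal day 2 width the partner was closer to the midpoint at one-partner sites than at weaker ones, for example 116 bp (105.5 to 127) against 159 bp (151 to 168.5) at widths from 1000 to below 1200 bp. The intervals were apart in 6 of the 7 width steps and overlapped from 1800 to below 2000 bp. The partners of one-partner sites were also wider there (493 against 356 bp), which leaves a contained partner less room to lie off centre. The largest distance, 839 bp, was on chromosome 5 at 75148851 to 75150461 (score 487), where a partner of 185 bp at 75148725 to 75148909 (score 50.9) covered 3.66% of the day 2 peak at its edge. On chromosome 11 the site at 87880971 to 87882874 (score 724) had its partner 833 bp off centre, at 87880887 to 87881292 (score 66.3). The partner's midpoint fell outside the day 2 peak at 4 sites, a count made after the values were seen. They were that on chromosome 5 and those on chromosome 11 from 87800310, chromosome 2 from 122131283 and chromosome 7 from 150969817.

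Sites with several partners had a best day 5 peak, by width or by score, close to the only partner across all one-partner sites. Against one-partner sites in a day 2 score range that holds their median, this best peak was narrower and lower in score. At the 679 strong narrow sites with several partners, the widest day 5 peak had a median width of 462 bp (449 to 474), against 481 bp (471 to 490) for the only partner of a one-partner site, so the intervals just overlapped. Their highest-scoring partner had a median score of 120 (115 to 127), against 124 (120.1 to 128), with overlapping intervals. The lowest-scoring one had a median of 64.5 (62.8 to 66.3), and the widths of a site's partners summed to a median of 800 bp (782 to 827). Their day 2 peaks were wider, at 1448 bp (1423 to 1489) against 1218 bp (1199 to 1237), and higher in score, at 503 (486 to 520) against 442 (436 to 446). One-partner sites scoring from 476.56 to 585.64 at day 2, a range that holds the 503, had a median partner score of 138 (130 to 146). Their median partner width was 515.5 bp (484 to 530), and both intervals lay above those of the best of several partners. The strong narrow peaks with no partner had a lower day 2 score, at 387 (382 to 395), and were also wider than one-partner sites, at 1322 bp (1273 to 1344).

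One-partner sites were spread over all 19 chromosomes and had other LSD1 peaks nearby about as often as day 2 peaks in general. Another day 2 peak lay within 1 kb of 675 sites (26.4%, 24.7 to 28.1), where 24.1% of all autosomal day 2 peaks had one, and within 10 kb of 1730 sites (67.6%, 65.7 to 69.3), where 65.9% had one. Only 43 sites had no other day 2 peak within 100 kb. The next one-partner site was a median of 131173 bp away. Of the 2191 windows of 100 kb that held a site, 1883 held 1, 255 held 2, 44 held 3 and 9 held 4, the highest number. The windows with 4 that came first in order of chromosome name were chromosome 1 at 91400001 to 91500000 (14 day 2 and 10 day 5 peaks in all), chromosome 11 at 100200001 to 100300000 (14 and 11), chromosome 12 at 112900001 to 113000000 (18 and 5). They were followed by a pair on chromosome 13, at 21800001 to 21900000 (16 and 10) and at 60500001 to 60600000 (16 and 7).

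Chromosome 15 carried more one-partner sites per Mb, and with wider partners, than the other autosomes. It held 203 of them (7.93%, 6.94 to 9.04), where 5.69% of autosomal day 2 peaks lie on it, and 2.03 per Mb spanned by peaks. Its share was also above 5.69% among strong peaks of 2000 bp and more with 1 partner (14.5%, 10.6 to 19.4) and weaker one-partner sites (6.64%, 6.14 to 7.17). It was 6.96% (5.14 to 9.38) among strong narrow peaks with no partner and 6.63% (4.99 to 8.75) among those with several. Both of these intervals include 5.69% and overlap that of one-partner sites. The other 18 chromosomes ranged from 0.743 per Mb on chromosome 18 to 1.63 on chromosome 11. The share of strong narrow peaks with exactly 1 partner was 70.7% on chromosome 15 (65.2 to 75.7), within the range of the others, which went from 56.8% on chromosome 4 (50.1 to 63.3) to 72.2% on chromosome 19.

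Partners on chromosome 15 had a median width of 636 bp (600 to 668), and those on the other chromosomes together 471 bp (462 to 481). Taken singly, the other 18 had medians from 383 bp on chromosome 7 to 547 bp on chromosome 19, whose interval of 490 to 628 bp reached into that of chromosome 15. The day 2 peaks differed less, at 1273 bp (1229 to 1338) on chromosome 15 and 1208 bp (1190 to 1231) elsewhere, so the width ratio was 1.97 against 2.38. The greater width held along the chromosome: 664 bp below 71 Mb (90 sites), 608 bp from 71 to 91 Mb (73 sites) and 612.5 bp beyond (40 sites). It was not confined to these sites, since all day 5 peaks of chromosome 15 had a median width of 419 bp (408 to 434) against 326 bp (324 to 328) elsewhere, and partners of weaker one-partner sites 396 bp against 322 bp. On chromosome 8 from 79 to 99 Mb there were 37 one-partner sites (1.44% of them), where 1.24% of autosomal day 2 peaks lie.

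**Figure D5:**
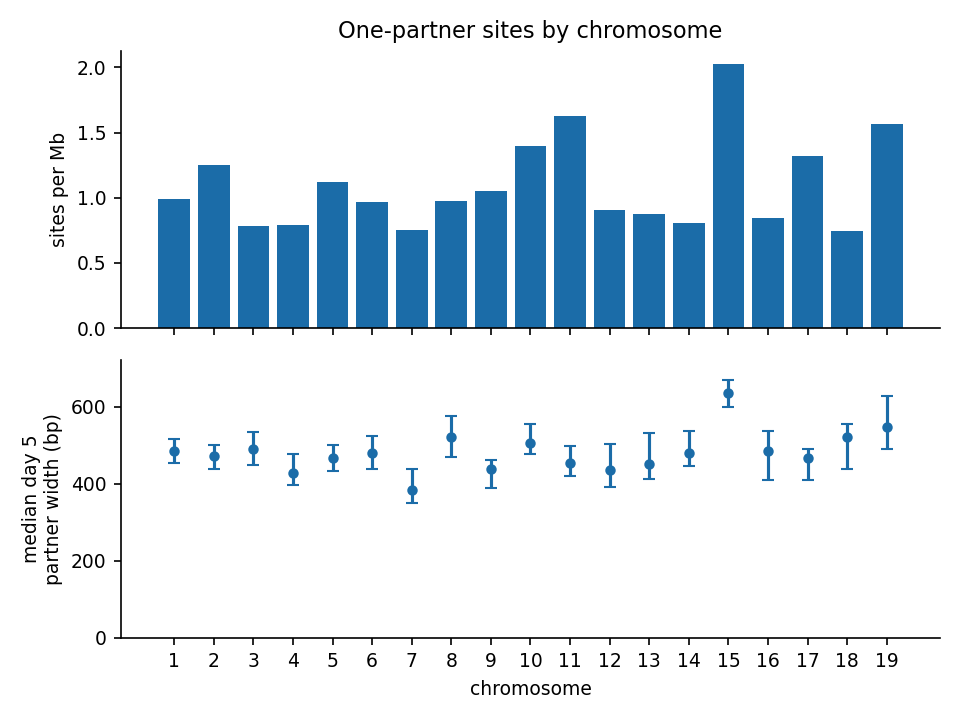
One-partner sites per Mb of the length spanned by day 2 peaks (top, bars from 0) and median width in bp of their day 5 partners with 95% intervals of the median (bottom), for chromosomes 1 to 19. Chromosome 15 is highest in both, at 2.03 sites per Mb and 636 bp.

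The few sites next to the limits overlapped in their day 5 values. The 3 sites just inside the score limit (330.02 to 330.09) had partners scoring 106, 56.2 and 79.9, and the 3 just outside it (329.7 to 329.99) had partners scoring 87.1, 54.5 and 105.5. The 3 widest sites (1998 to 1999 bp) had partners of 314, 667 and 671 bp, and the 3 strong peaks just above the width limit (2001 to 2006 bp) had partners of 285, 523 and 632 bp. Above the limit as a whole, 242 strong peaks of 2000 bp and more with exactly 1 partner had a median partner width of 478.5 bp (446 to 531), almost that of the one-partner sites, at a median day 2 width of 2228.5 bp. In those, the partner covered the day 2 midpoint at 36.8% (31.0 to 43.0), against 74.4% at one-partner sites. It also covered less of the wider day 2 peak, a median of 21.1% (19.7 to 22.1) against 42.4%. The shares at the midpoint thus do not compare position alone.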

How the data were processed

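LSD1 ChIP-seq peaks of 2 libraries (day 2 and day 5, grouped by sample title) were analysed; the inputs were not analysed here. The authors deposited 1 peak list per library, called with MACS in Galaxy per the file headers, each peak with a start, an end and a score. The deposited score is the peak caller's own value; for its scale, the MACS version, the cutoff, duplicate handling and use of the input, the sources used here give nothing. Bowtie2, deepTools and the build mm9 are listed in the submitters' processing notes. Score, width and number of peaks can all follow read depth, which is unknown.

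Starts were shifted from counting at 0 to counting at 1. Neither list held repeated or mutually overlapping peaks. Places rank a peak by score in its whole list. Shares have Wilson 95% intervals and medians binomial order-statistic intervals. Sites were named by the highest and lowest day 5 score (10 each), the highest day 2 score, width ratio (both ends), midpoint distance and difference of places (5 each), the limits (3 each side) and the fullest windows (5). Sites and rules were chosen with earlier results of these data known. Overlap counting was tested on simulated data. The gene and promoter tables at hand belong to GRCm38.p6; no coordinates were converted, so promoters, gene lists and motifs, although planned, were not examined. Alternatives covered the limits, the overlap, the day 5 score, merging of day 5 peaks and chromosome 15. Scripts ran in Python 3.11.15 with pandas 2.3.3, SciPy 1.17.1, NumPy 2.4.6 and, for plots, Matplotlib 3.10.9.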

Additional observations from a re-analysis of the deposited data

How the results depend on the processing

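The 12 values recomputed under up to 8 alternatives gave 93 results, of which 53 stayed within the main interval (the number of sites within 1.5 times) and 40 moved. No value here has a sign that could reverse. The 12 values stayed within their interval when at least 50% of the day 5 peak had to overlap, as did the 9 recomputed without chromosome 15, and the shares with another day 2 peak within 1 kb or 10 kb did so under every alternative. In the following, the order is the share of strong narrow peaks with exactly 1 partner, partner width, width ratio, share wholly inside, midpoint distance, partner score, partner place, share in the top 10% and share on chromosome 15, where each moved. A score limit of 500 left 897 sites, with 584 bp, 2.04, 93.9% inside, a partner score of 180 (179.94), place 1241, 60.5% in the top 10% and 9.25% on chromosome 15. A score limit of 250 gave 4141 sites, with 62.9%, 436 bp, 2.43, a score of 106, place 4112 and 26.5%. A width limit of 1500 bp gave 71.8%, 2.17 and 99.5 bp. An overlap of at least 50% of the day 2 peak left 969 sites, with 25.5%, 671 bp, 1.63, 90.4%, 69.5 bp, a score of 186, place 1136, 67.2% and 11.2%; by construction it keeps partners close in width to the day 2 peak. Counting only day 5 peaks with a score of 100 or more gave 52.4%, 559 bp, 2.09, 93.6%, a score of 163, place 1557.5 and 54.3%. Merging day 5 peaks less than 1 kb apart gave 85.2%, 573 bp, 2.01, 86.4% and 32.2%, since sites with several partners then count as having 1. The score and width limits change which sites enter, and for the remaining moves the cause was not tested. No paired analysis was possible because each day has 1 library, and there was no replicate to leave out. Depth and inputs were not analysed here, so peak width and score cannot be told apart from depth.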

Other observations

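Values chosen after they were seen are given here with no explanation. The narrowest one-partner site lay on chromosome 13 at 21923913 to 21924140, a day 2 peak of 228 bp with a score of 364, and its partner of 135 bp scored 172. The next narrowest were 317 bp wide on chromosome 7 at 100052170 to 100052486 (score 365, partner 297 bp) and 358 bp wide on chromosome 11 at 57780069 to 57780426 (score 407, partner 313 bp). The widest partners were 1511 bp on chromosome 6 at 42274023 to 42275533 (score 438), 1509 bp on chromosome 8 at 98411106 to 98412614 (score 374) and 1493 bp on chromosome 15 at 52894149 to 52895641 (score 162), in day 2 peaks scoring 607, 471 and 377. The partner also overlapped a second day 2 peak at 7 one-partner sites, and another day 5 peak lay within 1 kb of the partner at 171 (6.68%, 5.77 to 7.71).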
